A study of Rattus norvegicus with 8 samples.

Results

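Genes of hepcidin and iron handling were followed in regenerating rat liver. The group holds 10 named genes: Hamp, Hfe, Tfr2, Bmp6, Tfrc, Tf, Slc39a14, Slc40a1, Cp and Hpx. A gene entered with a probe set to which the array's annotation gives that symbol alone, and a gene with several such probe sets would have been represented by the brightest. On this basis 9 of the 10 genes had a probe set of their own, 1 each, among 18166 genes on the array. Both probe sets of Tf, the gene of the iron carrier transferrin, are also annotated to Srprb, so no value is given for it. A gene was tested where its mean log2 level over the arrays was at least 5, which held for 8 of the 9 measured genes and for 8690 genes in all. Bmp6, at 4.89, fell below that level and its values are given without a test.

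RNA from the livers of male Sprague-Dawley rats (an outbred strain) was profiled on 8 Affymetrix arrays. Rats were chronically fed ethanol or were pair-fed a carbohydrate diet, and either received no oligonucleotide or received AM21, a locked nucleic acid antisense to the microRNA miR-21 (7.5 mg/kg into the peritoneum, 72 h before surgery and again directly after it). All rats underwent partial hepatectomy (PHx), surgical removal of 70% of the liver, and tissue was frozen from that operation (0 h) and 24 h later. Each array is 1 RNA pool of 4 untreated or 3 AM21 rats, so each of the 8 conditions was measured once. Each rat contributed tissue at both times, which makes 4 matched pools: the untreated and the AM21 pool of pair-fed rats, then the untreated and the AM21 pool of ethanol-fed rats. Values below are given in that order. The spread between animals was not measured, every error is a spread between pools or arrays, and no age of the rats was used here. No array came from a sham-operated rat, so a change at 24 h cannot be told apart from effects of surgery or of the hours between samples. AM21 and untreated rats carry separate ranges of animal numbers, so AM21 and cohort cannot be told apart, and an oligonucleotide control was not analysed here. The study's question was how miR-21 acts in liver regeneration under chronic ethanol.

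Hepcidin, the product of Hamp, is a peptide hormone that hepatocytes release. It binds ferroportin, the iron exporter encoded by Slc40a1, blocks it and leads to its breakdown, so that less iron leaves macrophages, gut cells and hepatocytes. Transcription of Hamp is raised by iron, through bone morphogenetic proteins (BMPs), the co-receptor hemojuvelin and SMAD factors, and by inflammation, through interleukin 6 and STAT3. Cells also hold their iron by a post-transcriptional loop, in which iron regulatory proteins stabilise the Tfrc mRNA and block translation of ferritin when iron is low. These are features of the pathway as generally known and not results of these arrays.

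The sequences below are shown because the 2 input pathways of hepcidin are known to act on its proximal promoter, and because Tfrc, the member with the largest response here, carries some of the same letters in the same window. They are RefSeq sequences of the rat assembly GRCr8, written 5′ to 3′ on the gene's own strand. The capitals mark GGCGCC, the core letters of the BMP response element, TTCNNNGAA, the letters bound by STAT factors, and ACGTG, the core of the hypoxia response element. The Hamp window is the 250 bases before the annotated start, chr1:95300272-95300521 on the minus strand, with GGCGCC 129 bases and TTCTTGGAA 117 bases before the start.
Hamp: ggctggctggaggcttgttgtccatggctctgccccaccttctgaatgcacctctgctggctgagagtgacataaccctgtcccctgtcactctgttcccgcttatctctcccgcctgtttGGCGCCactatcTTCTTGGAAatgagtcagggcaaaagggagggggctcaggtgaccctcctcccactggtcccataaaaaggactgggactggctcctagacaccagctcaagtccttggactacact
The Tfrc window is chr11:81690319-81690568 on the minus strand, with GGCGCC 118 bases and ACGTG 31 bases before the start.
Tfrc: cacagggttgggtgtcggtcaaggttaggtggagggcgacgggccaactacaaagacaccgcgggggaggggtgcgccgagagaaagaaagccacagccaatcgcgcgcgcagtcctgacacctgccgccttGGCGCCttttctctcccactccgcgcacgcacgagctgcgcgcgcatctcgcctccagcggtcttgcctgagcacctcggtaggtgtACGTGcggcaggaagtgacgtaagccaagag
Hjv, the hemojuvelin gene, is shown for a STAT-type match 148 bases before its start, within chr2:186754628-186754686 on the plus strand.
Hjv: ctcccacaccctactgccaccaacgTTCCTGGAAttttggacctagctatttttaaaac
The target of AM21 is the mature miR-21-5p, at chr10:71902653-71902674 on the minus strand, with its seed (bases 2 to 8) in capitals.
rno-miR-21-5p: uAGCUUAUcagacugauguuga

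A promoter was found in the RefSeq table for 8 of the 10 genes. Both strands were searched, GGCGCC and TTCNNNGAA read the same on either strand, and no matches overlapped. GGCGCC was present in the window of 2 genes, Hamp and Tfrc, TTCNNNGAA in 1, Hamp, and ACGTG in 1, Tfrc. Of all 33469 rat promoters in the table, 8.69% hold GGCGCC in their 250 upstream bases, 7.67% hold TTCNNNGAA and 16.6% hold ACGTG. A match describes the letters alone, and binding was not measured.

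The deposited values are log2 RMA intensities, which carry no detection call, and the level of one probe set cannot be set against that of another. Defining hepatocyte markers were present: 9 of 10 listed had a probe set, and the log2 of their summed linear values lay between 14.94 and 14.98 at 0 h and between 14.89 and 14.92 at 24 h. The medians of the 8 arrays lay between 4.11 and 4.23. In such whole-liver RNA, fewer cells of a type and less RNA per cell cannot be told apart.

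Hamp itself had nearly the same value on every array. Its log2 level was 12.25, 12.24, 12.17 and 12.21 at 0 h and 12.18, 12.32, 12.32 and 12.15 at 24 h, and the groups overlapped. The pair-fed untreated and the ethanol-fed AM21 pools were slightly lower at 24 h, and both other pools slightly higher. The mean was 12.22 ± 0.03 at 0 h and 12.24 ± 0.09 at 24 h (SD, n = 4 arrays), a difference of 0.03 ± 0.09 (SE, limma adjusted p = 0.846) with a 95% confidence interval from -0.18 to 0.23. The range over all 8 arrays was 0.18, and 1.14% of the tested genes had a smaller one. Hamp lies high on the array's scale: among genes with a probe set of their own 3 had a higher mean, the highest at 12.34, against 12.23 for Hamp, while the highest single value of any probe set was 13.34. In a comparison added after the values were seen, 13.4% of the 149 tested genes with a mean of at least 11 had a smaller range than Hamp. The median range over the 8 arrays was 0.36 for those 149 genes, against 0.63 for genes below 11. Of the 149 genes 30.9% were called changed at 24 h, against 28.1% of genes below 11. Their median absolute difference was 0.17 against 0.21. Whether the scale is compressed at the level of Hamp was not tested.

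**Figure D1:**
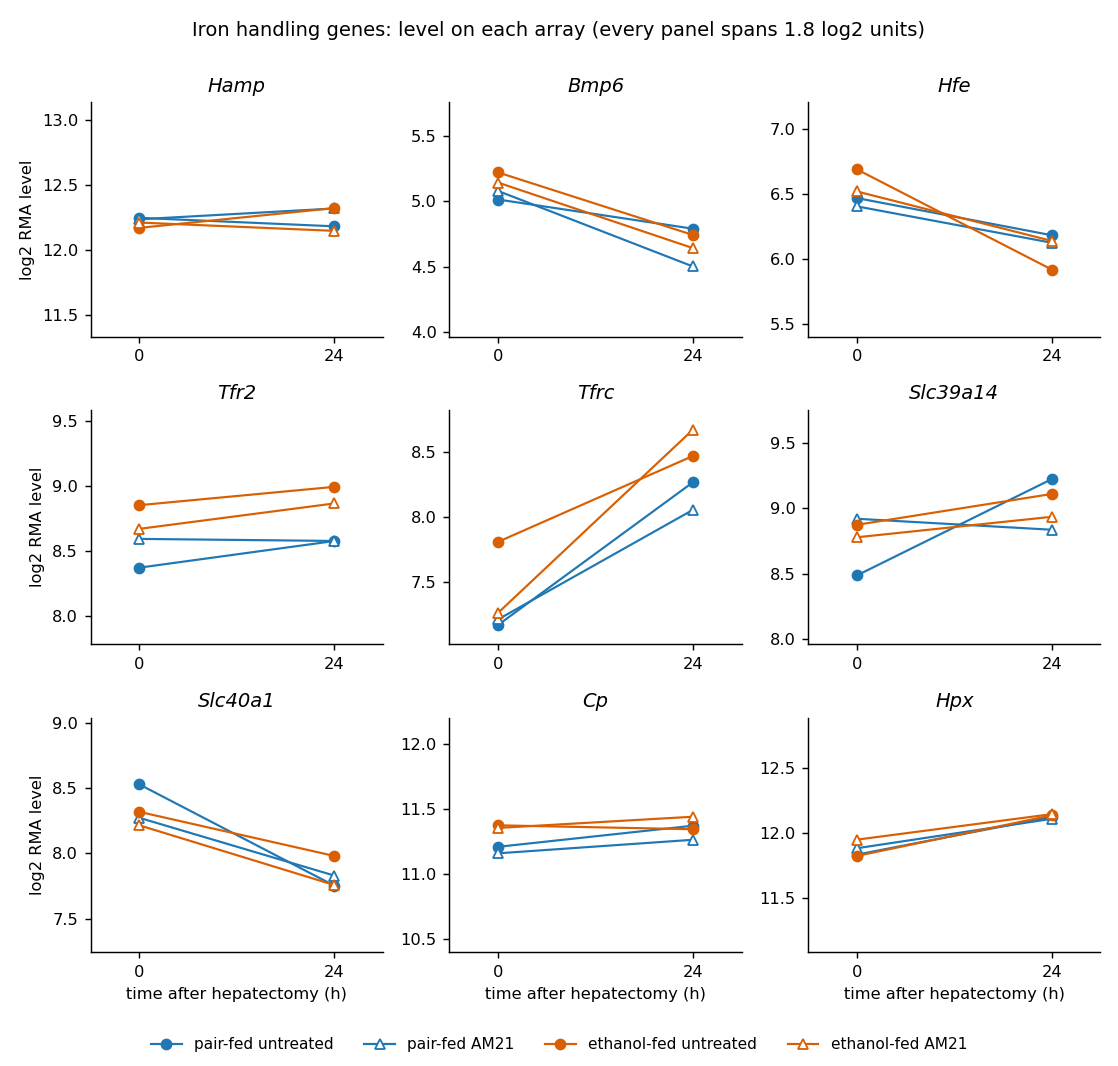
Log2 level of each of the 9 measured genes on the 8 arrays, with 1 point per array and lines joining the 0 h and 24 h arrays of a pool. The Tfrc lines all rise and the Slc40a1, Hfe and Bmp6 lines all fall, while Hamp stays between 12.15 and 12.32.

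Of the upstream sensors, the membrane proteins that inform the hepatocyte about iron, Hfe was lower at 24 h in all 4 pools. Hfe encodes the haemochromatosis protein, an MHC class I-like partner of both transferrin receptors. Its level was 6.47, 6.41, 6.69 and 6.52 at 0 h and 6.18, 6.13, 5.92 and 6.14 at 24 h. Every 24 h array lay below every 0 h array, and the ethanol-fed untreated pool held both the highest 0 h and the lowest 24 h value. Hfe fell by 0.43 on the log2 scale (SE 0.11, limma adjusted p = 0.0307), which is 1.35-fold, from 6.52 ± 0.12 to 6.09 ± 0.12 (SD, n = 4 arrays). The call did not hold without any 1 of the 4 pools, with adjusted p between 0.0556 and 0.104 over those 4 fits, nor with all 18166 genes tested (0.0718).

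Bmp6 encodes the ligand that endothelial cells of the liver sinusoids release when iron is high. Its level was 5.01, 5.08, 5.22 and 5.14 before PHx and 4.79, 4.50, 4.74 and 4.64 after it, with means of 5.12 ± 0.09 and 4.67 ± 0.13 (SD, n = 4 arrays). All 24 h arrays were below all 0 h arrays. With all 18166 genes in the fit, its difference was -0.45 (limma adjusted p = 0.0432), a fit in which 10.1% of all genes were called, at a level where signal and background are hard to separate. Of 12 listed markers of sinusoidal endothelium, 8 had a probe set and 7 were tested: Clec4g, Oit3 and Ehd3 fell, none rose and 4 did not pass, where 12.8% of all genes were called lower. The summed log2 level of the 8 markers lay between 10.22 and 10.58 at 0 h and between 9.91 and 10.44 at 24 h, and their part in the Bmp6 values was not tested.

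Tfr2, the second transferrin receptor, is found in hepatocytes and erythroid precursors and acts as a sensor of transferrin-bound iron. Its level was 8.37, 8.59, 8.85 and 8.67 at 0 h and 8.58, 8.58, 8.99 and 8.87 at 24 h. The times overlapped, and the difference of 0.13 ± 0.09 (SE, interval -0.07 to 0.34, limma adjusted p = 0.295) did not pass. Its values were ordered by diet rather than by time, as given further on.

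Among the routes of iron uptake, Tfrc had the largest response to PHx of the tested members. Tfrc encodes transferrin receptor 1, which carries transferrin-bound iron into cells and is abundant in dividing cells. Its level was 7.17, 7.22, 7.81 and 7.27 at 0 h and 8.27, 8.06, 8.47 and 8.67 at 24 h. All 24 h arrays lay above all 0 h arrays, and at 0 h the ethanol-fed untreated pool stood above the other three. The rise was 1.00 ± 0.13 on the log2 scale (SE, interval 0.68 to 1.32, limma adjusted p = 0.00361), or 2.0-fold, from 7.37 ± 0.30 to 8.37 ± 0.26 (SD, n = 4 arrays). By pool it was 1.10, 0.84, 0.66 and 1.41, smallest in the ethanol-fed untreated pool, whose 0 h value was highest. The call held without each pool in turn, with adjusted p between 0.00652 and 0.0203.

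Proliferation markers rose beside Tfrc, all 10 of 10 listed, where 15.3% of all genes were called higher. In the PHx by diet interaction 7 of the 10 were called by limma, against 0.529% of all genes. That interaction rests on 1 residual degree of freedom, and its calls depended on the fit. Over all genes it called 46, but 0 with no level filter and 226 with an intensity trend in the spread. The same interaction of Tfrc was 0.06 ± 0.27 (SE, limma adjusted p = 0.974). Their summed log2 level was 9.23, 8.84, 10.16 and 9.73 at 0 h and 12.45, 13.01, 12.12 and 12.29 at 24 h. At 24 h the sum was highest in the pair-fed AM21 pool, where Tfrc was lowest, and at 0 h both were highest in the ethanol-fed untreated pool. Of 18 erythroid markers 11 had a probe set and 3 were tested. None of the 3 was called for PHx by limma, also at an unadjusted p under 0.05. In the PHx by AM21 interaction all 3 had an unadjusted p under 0.05 by limma, as 6.95% of all genes had, and none was called. For AM21 itself 1 of the 3 had such a p, where 6.19% of all genes did. The summed level of the 11 erythroid markers with a probe set lay between 11.83 and 11.93 at 0 h. At 24 h it was 12.13, 11.19, 12.03 and 11.04, lower in both AM21 pools than in both untreated pools. The part of proliferating or erythroid cells in the Tfrc values was not tested.

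Slc39a14 encodes ZIP14, the carrier through which hepatocytes take up iron that is not bound to transferrin. Its level was 8.49, 8.92, 8.87 and 8.78 at 0 h and 9.23, 8.84, 9.11 and 8.94 at 24 h. The pair-fed untreated pool had both the lowest 0 h and the highest 24 h value, and its response of 0.74 stood apart from 0.24, 0.16 and -0.08 in the ethanol-fed untreated, ethanol-fed AM21 and pair-fed AM21 pools. The mean difference of 0.26 ± 0.14 (SE, interval -0.07 to 0.60) did not pass (limma adjusted p = 0.208).

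Slc40a1, the gene of ferroportin, the iron exporter, was lower at 24 h in all 4 pools. Its level was 8.53, 8.27, 8.32 and 8.22 at 0 h and 7.75, 7.83, 7.98 and 7.76 at 24 h, without overlap between the times. It fell by 0.50 on the log2 scale (SE 0.10, interval -0.75 to -0.26, limma adjusted p = 0.0131), or 1.42-fold. The responses by pool were -0.78, -0.44, -0.34 and -0.46. The adjusted p stayed between 0.0319 and 0.0484 without each pool in turn.

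Ferroportin is made by Kupffer cells, the macrophages of the liver that recycle iron from red cells, as well as by hepatocytes. All 15 listed markers of Kupffer cells and macrophages had a probe set and were tested: Clec4f, Csf1r, Adgre1 and Cd14 fell at 24 h, Marco rose, and 10 did not pass. Over all genes 12.8% were called lower and 15.3% higher. Their summed log2 level was 11.51, 11.61, 12.10 and 12.08 at 0 h and 11.58, 11.34, 12.04 and 11.86 at 24 h. The sum was thus a little higher at 24 h in the pair-fed untreated pool, which had the largest decrease of Slc40a1, and lower in the other three. It joins markers that moved in opposite directions: in the pair-fed untreated pool Marco changed by 1.30, Clec4f by -0.23 and Csf1r by -0.33. The part of Kupffer cells in the Slc40a1 values was not tested.

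Hpx and Cp, members that encode plasma proteins of heme and iron handling, were not called for PHx in the main fit. Hpx encodes hemopexin, which binds free heme in plasma, and its level was 11.84, 11.88, 11.83 and 11.95 at 0 h and 12.13, 12.11, 12.14 and 12.15 at 24 h. All 24 h arrays lay above all 0 h arrays, and their SD was 0.02 (n = 4 arrays). The difference was 0.26 ± 0.08 (SE, interval 0.06 to 0.45) and did not pass (limma adjusted p = 0.0565), although it did with a spread that follows the level (0.00313) and without the pool as a block (0.0362). Cp encodes ceruloplasmin, the copper oxidase that loads iron onto transferrin. Its level was 11.21, 11.16, 11.37 and 11.35 at 0 h and 11.37, 11.26, 11.34 and 11.44 at 24 h, a difference of 0.08 ± 0.08 (SE, interval -0.12 to 0.28, limma adjusted p = 0.506). Both genes lie high on the array's scale, as Hamp does.

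**Figure D2:**
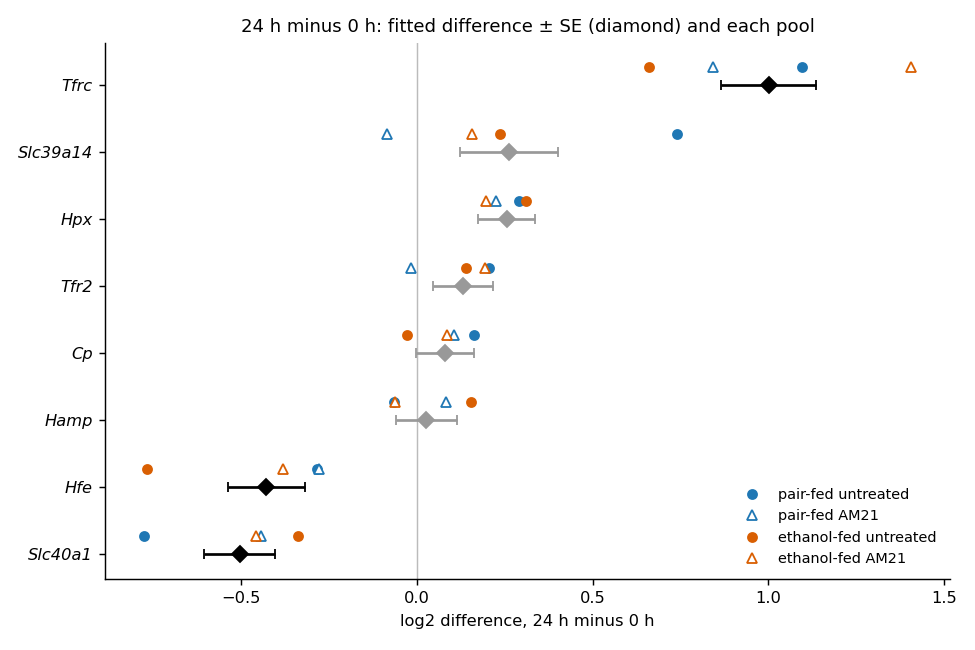
Response to PHx (24 h minus 0 h, log2) of the 8 tested genes, with 1 coloured point for each of the 4 pools and a diamond with a bar for the limma estimate ± SE. Black diamonds mark an adjusted p under 0.05, here Tfrc at 1.00 and Slc40a1 and Hfe at -0.50 and -0.43, while Hamp sits at 0.03.

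In all, 1 of the 8 tested members rose, 2 fell and 5 did not pass. Over all genes tested, 28.1% were called, 15.3% higher and 12.8% lower, so 3 of 8 is a share of the order seen for genes at large. An unadjusted p under 0.05 was found for 4 of the 8 members and for 40.8% of all genes. Values of the 2 times did not overlap for 4 of the 8, against 31.1% of all genes: 2 members were higher (17.4% of all genes) and 2 lower (13.7%). The median response of the members was 0.11, beside 0.01 over all genes tested. Leaving out a pool brought the calls over all genes from 2443 to between 1466 and 1705, and those among the members to 2 in each of the 4 fits.

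The surrounding pathway was read through 6 lists, which hold 83 other genes with a probe set, 67 of them tested. Of these 10 rose, 11 fell and 46 did not pass, with a median of -0.03. Over all genes tested 28.1% were called, 15.3% higher and 12.8% lower, so the calls in these lists together are of the order seen for genes at large. The same shares stand beside the count of each list below. In the BMP and SMAD list, 2 of 16 tested genes rose and 3 fell (median -0.12), and the 2 genes best known for opposite effects on hepcidin are among them. Hjv, the hemojuvelin co-receptor through which BMPs raise Hamp, measured 7.75, 8.25, 8.26 and 7.87 before PHx and 8.76, 8.63, 8.77 and 8.69 at 24 h. It rose by 0.68 ± 0.12 (SE, limma adjusted p = 0.00958), with no overlap between the times. Tmprss6, the protease matriptase-2, which cleaves hemojuvelin and holds Hamp down, measured 8.08, 8.37, 8.45 and 8.28 before PHx and 7.26, 7.02, 7.47 and 7.51 at 24 h. It fell by 0.98 on the log2 scale (SE 0.12, limma adjusted p = 0.0025) in all 4 pools, and its times did not overlap either. Hamp stood at 0.03 ± 0.09 on the same arrays.

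The SMAD target Id1 rose by 0.64 ± 0.11 (SE, limma adjusted p = 0.0089), from 6.43, 6.10, 6.12 and 6.28 to 7.13, 6.86, 6.96 and 6.56. Its relative Id4 fell by 0.84 on the log2 scale (limma adjusted p = 0.00776), and so did the activin receptor gene Acvr2a, by 0.41 (0.0135); Acvr2a, Il6st, Fgl1 and single marker genes are named after their values were seen. Other readouts of BMP signalling did not pass: Smad6, an inhibitory SMAD, stood at -0.23 ± 0.08 (0.0814) and Atoh8, a factor that responds to BMP6, at 0.05 ± 0.08 (0.658). The endothelial ligand gene Bmp2 stood at 0.09 ± 0.11 (0.549), and its level was close to the minimum of 5. Smad7, a feedback inhibitor, was below the minimum.

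In the list of interleukin 6, STAT3 and erythroid signals, 3 of 11 tested genes rose and 3 fell (median -0.03). Il6r, the interleukin 6 receptor, measured 8.48, 8.49, 7.99 and 8.03 before PHx and 6.88, 7.10, 7.20 and 7.22 at 24 h. It fell by 1.14 on the log2 scale (limma adjusted p = 0.00399), more in both pair-fed pools (-1.59 and -1.39) than in both ethanol-fed pools (-0.79 and -0.81), a difference that did not pass as an interaction (0.23). The co-receptor gene Il6st fell by 0.38 (0.0241). The genes downstream went the other way: Stat3, the transcription factor, rose by 0.83 ± 0.10 (SE, limma adjusted p = 0.00256), and Socs3, its feedback inhibitor, by 1.08 ± 0.16 (0.00442). Socs3 measured 5.98, 5.76, 5.75 and 5.46 before PHx and 6.67, 6.62, 6.89 and 7.07 at 24 h. Fgl1, a hepatokine that antagonises BMP6, rose by 0.35 (0.0209), while Inhba, the activin subunit gene, fell by 0.80 (0.0103). Erfe, the gene of erythroferrone, a hormone of erythroid cells that lowers hepcidin, was below the level minimum at 4.07 to 4.64.

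**Figure D3:**
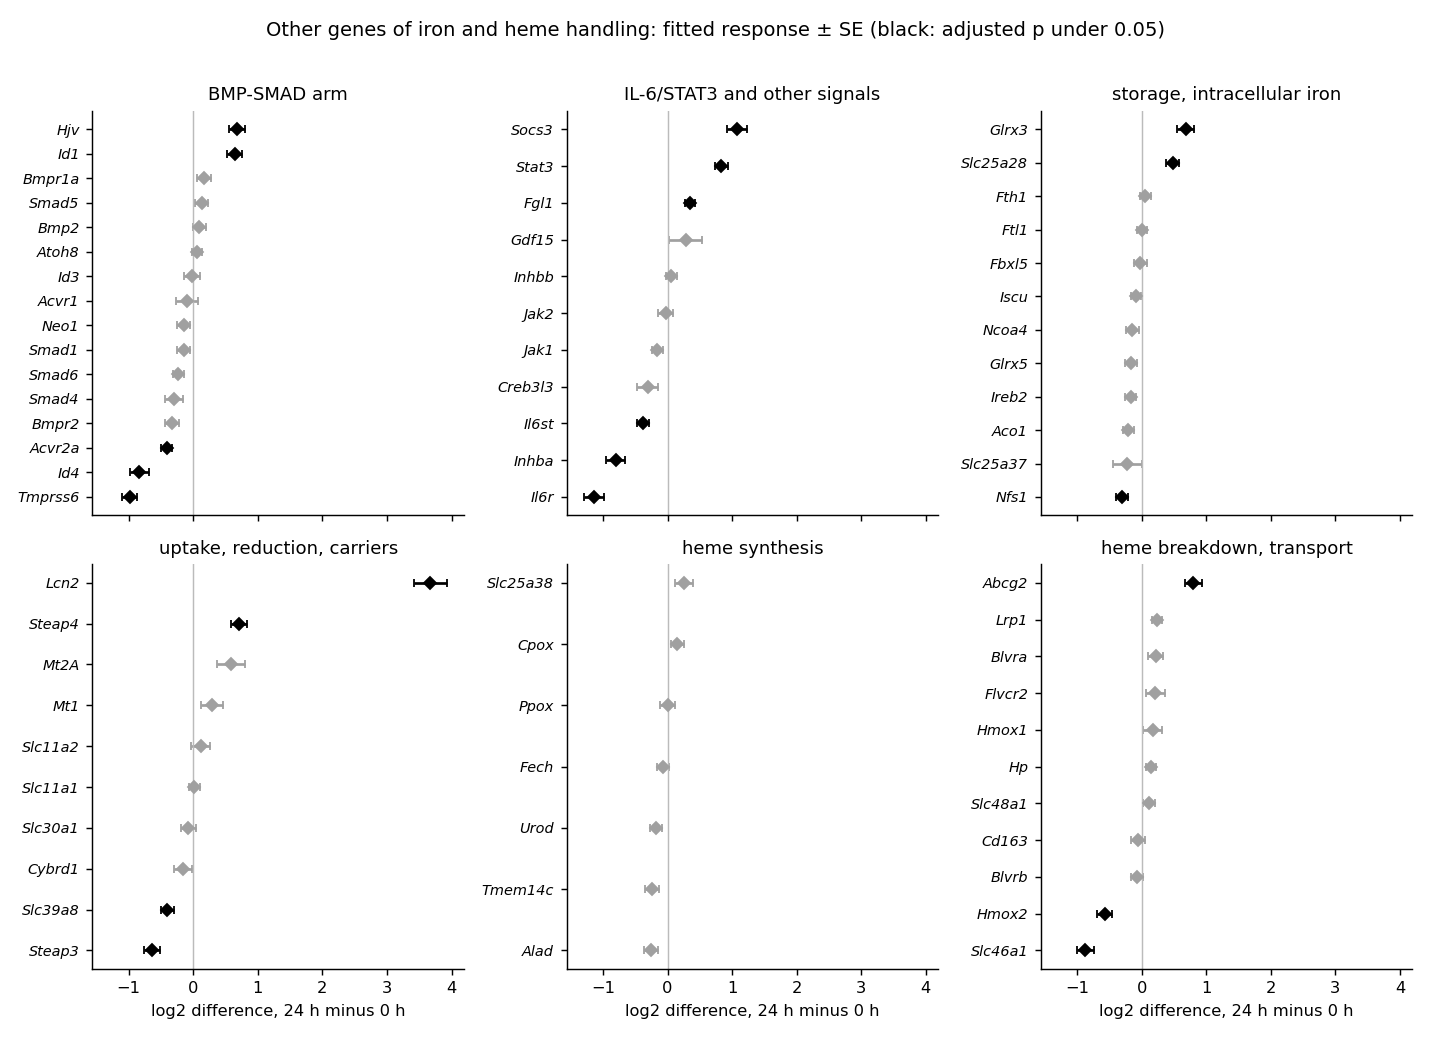
Response to PHx (24 h minus 0 h, log2) of tested genes of the hepcidin control and iron lists, in a panel for each of the 6 lists, as a diamond with a bar for the limma estimate ± SE, black where the adjusted p is under 0.05. Hjv, Stat3 and Socs3 lie above 0 and Tmprss6 and Il6r below 0, Lcn2 lies far to the right at 3.67, and every heme synthesis gene is grey.

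In the list of storage and intracellular iron, 2 of 12 tested genes rose and 1 fell (median -0.12). The ferritin subunit genes gave no call, with Fth1 at 0.06 ± 0.08 (SE, limma adjusted p = 0.648) and Ftl1 at 0.004 ± 0.08 (0.977). Ferritins have many processed pseudogenes, so their probe sets are uncertain, and ferritin is known to be set mainly at translation, which arrays do not measure. The RNA-binding regulators stood at -0.21 ± 0.09 (0.116) for Aco1, which encodes iron regulatory protein 1, and at -0.17 ± 0.08 (0.157) for Ireb2, which encodes iron regulatory protein 2. Ncoa4, the receptor that delivers ferritin to the lysosome, stood at -0.15 ± 0.10 (0.300). The 3 genes called were of mixed function: the mitochondrial iron importer gene Slc25a28 rose by 0.48 (0.0178), the glutaredoxin gene Glrx3 rose by 0.68 (0.012), and the cysteine desulfurase gene Nfs1 fell by 0.31 (0.0435). Without any 1 of the 4 pools Nfs1 was no longer called (0.0844 to 0.128), and Slc25a28 was not called without the pair-fed untreated, the pair-fed AM21 or the ethanol-fed AM21 pool (0.0541 to 0.0732).

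In the list of uptake, reduction and other metal carriers, 2 of 10 tested genes rose and 2 fell (median 0.07). Steap3, the ferrireductase of the transferrin cycle, fell by 0.64 (SE 0.13, limma adjusted p = 0.0125) while Tfrc rose. Steap4, a related metalloreductase that inflammation induces, rose by 0.70 ± 0.13 (0.00905). Slc39a8, the carrier ZIP8, fell by 0.40 (0.0293), and Slc11a2, the gene of the divalent metal carrier DMT1, stood at 0.12 ± 0.15 (0.590). Without the ethanol-fed AM21 pool Steap3 reached 0.0514, and Slc39a8 was not called without that pool, the pair-fed untreated or the ethanol-fed untreated pool (0.0857 to 0.113). Lcn2, which encodes a siderophore-binding acute phase protein, went from 8.94, 7.19, 8.56 and 8.59 to 12.07, 11.94, 12.01 and 11.94, by far the largest change of these lists at 3.67 ± 0.26 (0.00125). The neutrophil and monocyte markers S100a8 and S100a9 also rose, 2 of 5 tested from a list of 11, where 15.3% of all genes were called higher. The summed log2 level of all 11 markers was 8.40, 8.57, 8.87 and 8.86 at 0 h and 9.80, 8.72, 9.99 and 9.29 at 24 h. Their part in the Lcn2 values was not tested.

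None of 7 tested genes of heme synthesis passed by limma, where 28.1% of all genes did (median -0.07). None of the 7 had an unadjusted p under 0.05 by limma, as 40.8% of all genes had. Of 11 tested genes of heme breakdown, scavenging and transport, 1 rose and 2 fell (median 0.14). Over all genes 15.3% were called higher and 12.8% lower, so the calls in that list are of the order seen for genes at large. Slc46a1, which encodes a heme and folate carrier, fell by 0.88 (SE 0.13, limma adjusted p = 0.00511), and Hmox2, the constitutive heme oxygenase gene, fell by 0.57 (0.0123). Abcg2, which encodes an exporter of porphyrins and heme, rose by 0.80 ± 0.13 (0.00606). Hmox1, the inducible heme oxygenase gene, stood at 0.17 ± 0.15 (0.442), the haptoglobin gene Hp at 0.14 ± 0.08 (0.243), and Cd163, the scavenger receptor gene of macrophages, at -0.06 ± 0.10 (0.700).

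The diet comparison asked whether chronic ethanol was accompanied by other levels of these genes. None of the 8 tested members passed by limma, where 0.46% of all genes did. At an unadjusted p under 0.05 there were 2 members, Tfr2 and Tfrc, and 15.4% of all genes. Hamp differed by -0.03 ± 0.08 (SE, interval -0.23 to 0.16, adjusted p = 0.900) between ethanol-fed and pair-fed arrays, with means of 12.21 ± 0.08 and 12.25 ± 0.06 (SD, n = 4 arrays each).

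Tfr2 was the member whose diets did not overlap, which held for 4.87% of all genes and, with ethanol-fed higher, for 3.48%. The ethanol-fed arrays lay between 8.67 and 8.99 and the pair-fed arrays between 8.37 and 8.59, with means of 8.85 ± 0.13 and 8.53 ± 0.11 (SD, n = 4 arrays each). The 4 differences between matched conditions were 0.48 and 0.08 at 0 h and 0.42 and 0.29 at 24 h, in untreated and AM21 rats in that order. The estimate was 0.32 ± 0.09 (SE, interval 0.10 to 0.53, limma adjusted p = 0.176). For Tfrc the matched differences were 0.64 and 0.05 at 0 h and 0.20 and 0.62 at 24 h, higher in ethanol-fed rats in 4 of 4, and the estimate was 0.38 ± 0.13 (interval 0.09 to 0.67, limma adjusted p = 0.222). Both passed with the estimated correlation between the arrays of a pool, which was negative at -0.371, in place of 0 (limma adjusted p = 0.0475 for Tfr2 and 0.0454 for Tfrc). That setting raised the calls over all 8690 genes from 40 to 661, so it is not particular to these 2 genes. Over the fits that kept all arrays the adjusted p ran up to 0.392 for Tfr2 and 0.416 for Tfrc.

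The other members differed by -0.03 (Slc40a1) to 0.13 (Cp) between diets, with adjusted p between 0.498 and 0.949. None of the 67 tested genes of the pathway lists was called for diet by limma, and 13 had an unadjusted p under 0.05. With the estimated pool correlation 6 of the 67 were called, where 661 of all 8690 genes were. With all 2-way interactions in the fit 1 was called, where 285 of all genes were. Of the Kupffer cell markers, 3 of 15 (Marco, Cd5l and Cd14) were called higher in ethanol-fed liver and none lower, where 0.46% of all genes were called. These calls depended on the fit. With no level filter Marco and Cd5l did not pass (limma adjusted p = 0.0696 for each). Without the pair-fed untreated 24 h array no gene at all was called for diet. All 15 had an unadjusted p under 0.05 by limma, as 15.4% of all genes had. For 7 of the 15 every ethanol-fed array lay above every pair-fed array, which held for 3.48% of all genes. The summed level of the 15 markers was 11.86 to 12.10 in ethanol-fed and 11.34 to 11.61 in pair-fed arrays. Their part in the Tfr2 and Tfrc values was not tested.

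**Figure D4:**
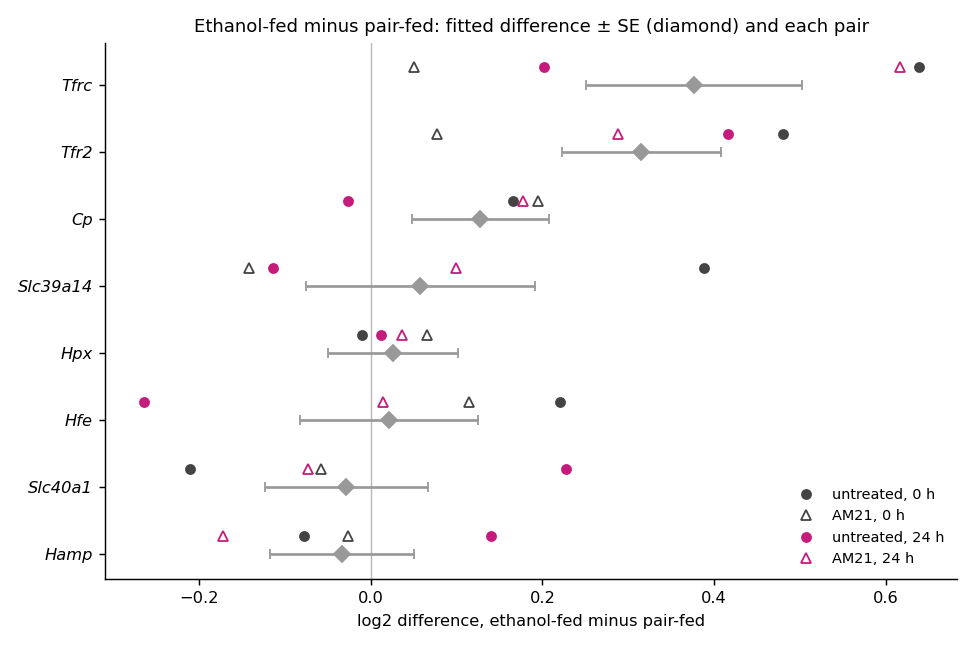
Ethanol-fed minus pair-fed difference (log2) of the 8 tested genes, with 1 coloured point for each of the 4 matched conditions and a diamond with a bar for the limma estimate ± SE, grey because no adjusted p was under 0.05. Tfrc (0.38) and Tfr2 (0.32) lie farthest from 0, and their 4 points all lie above 0.

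The AM21 comparison asked whether antisense to miR-21 went with other levels of these genes. No member passed by limma, nor did any of the 8690 genes (0.0%), while 0 members and 6.19% of all genes had an unadjusted p under 0.05. The AM21 minus untreated estimates ran from -0.13 for Tfrc and Slc40a1 to 0.04 for Hpx, with adjusted p between 0.902 and 0.997. For Hamp the estimate was -0.002 ± 0.08 (SE, interval -0.20 to 0.19). Its 4 matched differences were -0.01 and 0.04 at 0 h and 0.14 and -0.18 at 24 h, in pair-fed and ethanol-fed rats in that order, so 2 of 4 were above 0. Tfrc had matched differences of 0.04, -0.55, -0.21 and 0.20 in the same order and an interval from -0.42 to 0.16. These intervals bound the difference and do not show that AM21 leaves the genes alone.

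Differences in the response to PHx between diets or between AM21 and untreated pools rest on 1 residual degree of freedom. No member was called in either interaction by limma, nor had one an unadjusted p under 0.05. Over all genes 0.529% were called for the diet interaction and 0.0% for AM21, and 10.9% and 6.95% had an unadjusted p under 0.05. The largest estimate among the members was that of Slc39a14 with AM21, -0.45 ± 0.24 (SE, interval -1.0 to 0.10, adjusted p = 0.759), where the pair-fed untreated response of 0.74 stands against -0.08 with AM21. Next was Hfe with diet, at -0.29 ± 0.21 (interval -0.77 to 0.19, adjusted p = 0.693). For Hamp the intervals ran from -0.44 to 0.51 for diet and from -0.51 to 0.44 for AM21.

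The tested genes whose pattern over the 8 arrays was most like that of Hamp, by Pearson correlation, were Mcat (0.93), Ankib1 (0.92), Sh2b2 (0.86), Abhd15 (0.85) and Hlx (0.84), and the most opposite were Bles03 (-0.92), Asmtl (-0.92) and Axin1 (-0.89). Mcat encodes an acyl transferase of mitochondrial fatty acid synthesis and ran from 5.91 to 6.58. The correlations describe 8 arrays that share pools, and they follow differences of at most 0.18 in Hamp. The highest and lowest of 8690 genes over 8 points lie far out by selection alone.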

How the data were processed

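The authors deposited log2 values which the submitters' processing notes credit to RMA and Affymetrix Expression Console (versions not given in the sources used here). RMA fits arrays together and aligns their distributions. Of 36685 probe sets, 18511 carried 1 gene symbol, 575 several and 17599 none; 18394 were found in the GRCr8 RefSeq gene table. The members and lists were chosen with earlier results of these data known. Named were all members, up to 4 genes per list by PHx response among those past the threshold and changed alike in all pools, and a fixed set of iron genes (Alas1 and Alas2 had no probe set of their own). Differences were fitted with limma 3.58.1 in R 4.3.3 (lmFit, eBayes, Benjamini-Hochberg over 8690 genes, threshold 0.05): PHx with the pool as a fixed block (3 residual degrees of freedom), diet and AM21 with the pool as a random block, its negative correlation set to 0, and interactions with 1 residual degree of freedom. Pairing rests on the animal numbers in the labels. The fits were also run on simulated data with independent noise on each array. Such data hold no spread between pools, so they cannot test how the fits treat the pools. Alternatives are given in the closing section. The number of pools limits the precision.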

Additional observations from a re-analysis of the deposited data

Results flagged for a closer look

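Among 135 sets of 4 values in 45 genes, 6 held a value far from the other three, where chance gives about 1 in 20. The 6 are thus of the order that chance gives. The 0 h level of Tfrc in the ethanol-fed untreated pool was 7.81, against 7.17 to 7.27 in the other pools. The 0 h level of Ftl1, a ferritin subunit gene, in the pair-fed untreated pool was 11.74, against 11.99 to 12.03. The 24 h level of Smad7 in the pair-fed AM21 pool was 4.60, under the level minimum, against 4.90 to 4.95. Responses to PHx stood apart in the pair-fed untreated pool for Stat3 (1.11 against 0.72 to 0.77), Inhba (-0.24 against -1.04 to -0.96) and Atoh8 (0.17 against 0.01 to 0.03).

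The same 45 genes are the members and named genes with a few chosen later, and not the whole lists. Among them 3 had responses to PHx of opposite sign in the pair-fed and the ethanol-fed pools. Gdf15 and Slc25a37 were singled out after their values were seen. The share of all genes with such opposite signs was not counted, so the 3 cannot be set against it. Gdf15, a stress hormone of the TGF-beta family, responded by 0.64 and 1.07 in pair-fed and by -0.56 and -0.02 in ethanol-fed pools, a difference of -1.15 that did not pass (limma interaction, adjusted p = 0.0584). Slc25a37, the mitochondrial iron importer mitoferrin 1, responded by -1.0 and -0.44 against 0.09 and 0.45, a difference of 0.99 (limma interaction, adjusted p = 0.0952). Erfe, below the level minimum, responded by 0.10 and 0.57 against -0.10 and -0.27, a difference of -0.52 that was not tested.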

How the results depend on the processing

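The alternatives were no level filter, arrays centred on their medians, an intensity trend in the spread, the mean of a gene's probe sets, other treatments of the pool, all 2-way interactions, and leaving out pools or arrays. Tfrc and Slc40a1 kept their PHx call under each one run. Leaving out a pool gave 1466 to 1705 genes called for PHx (2443 with all) and 2 to 2 members (3 with all). The PHx response of Hamp was -0.015 with centred arrays and -0.015 to 0.057 without a pool; Ftl1 was -0.038 with centred arrays and -0.034 to 0.027 without a pool, and Slc11a2 -0.063 to 0.214. With no replicate block for PHx, 4 members passed, Hpx being added.

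For diet, the replicate block with the estimated pool correlation called 2 members (0 otherwise) and 661 genes; the replicate block by pool means called 102, all 2-way interactions 285, the intensity trend 88, no filter 11 and fits without 1 array 0 (without the pair-fed untreated 24 h array) to 18, against 40. For AM21, all 2-way interactions called 8 genes and the estimated correlation 1, against 0. For the diet interaction the trend called 226 genes and no filter 0, against 46, and for the AM21 interaction the trend called 51, against 0. With centred arrays the AM21 estimates of Hamp, Cp and Hfe were 0.020, 0.0014 and 0.0043, and the diet interaction of Hpx was 0.010. The cause of these changes was not tested.

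Without 1 array, signs turned among uncalled diet differences of Hamp (-0.082 to 0.0049), Slc40a1 (-0.106 to 0.031), Slc39a14 (-0.081 to 0.164), Hfe (-0.053 to 0.117), Abcg2 (-0.182 to 0.0023), Glrx3 (-0.143 to 0.033), Hjv (-0.084 to 0.177), Inhba (-0.040 to 0.240), Lcn2 (-0.148 to 0.487), Ncoa4 (-0.024 to 0.102) and Socs3 (-0.11 to 0.16), and AM21 differences of Hamp (-0.041 to 0.046), Tfr2 (-0.092 to 0.027), Slc39a14 (-0.195 to 0.043), Cp (-0.063 to 0.014) and Hfe (-0.114 to 0.057). The interactions had no fit without a pool, since no residual degree of freedom is left. Signal near the bottom of the scale limits Bmp6, Bmp2, Smad7 and Erfe.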

Other observations

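Metallothioneins, cysteine-rich proteins that bind zinc and copper, were lowest in 1 array, a pattern noticed after the values were seen. Mt1 was at 12.37, 12.15, 11.96 and 11.33 at 0 h and at 12.24, 12.30, 12.19 and 12.26 at 24 h, in the order of pools used above. Mt2A was at 12.44, 11.92, 11.85 and 10.89 at 0 h and at 12.46, 12.31, 12.34 and 12.32 at 24 h. Both were thus lowest in the ethanol-fed AM21 pool before PHx, while their 24 h values lay within 0.15 or less of each other. Each is a single array, and the probe sets of these near-identical genes can share signal.

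The haemoglobin gene Hbb-b1, a sign of red cells or their precursors in the tissue, was at 10.22, 10.50, 10.55 and 10.50 at 0 h and at 10.83, 9.52, 10.86 and 9.48 at 24 h. At 24 h both AM21 pools lay below both untreated pools, as the summed erythroid markers did. Hamp, the target of erythroid signals, was at 12.18, 12.32, 12.32 and 12.15 on those 4 arrays, where the AM21 and the untreated pools overlapped.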
